A study of Mus musculus with 2 samples.

Results

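The genes described here encode the pore-forming and auxiliary subunits of voltage-gated, calcium-activated and inwardly rectifying potassium channels, of voltage-gated sodium and calcium channels, and of hyperpolarisation-activated HCN channels. They were chosen by name among 21901 protein-coding genes, as symbols beginning Kcn, Scn, Cacn or Hcn in the subunit patterns of these families. The two-pore Kcnk genes, Kcnj5, Cacna1d and Cacna1h were left out of the set. This gave 121 genes, all of which were present in the gene tables.

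RNA came from the adrenal glands of adult male mice, 8 to 10 months old, of a 5xFAD and CAST cross. The 5xFAD strain carries human transgenes with familial Alzheimer's disease mutations driven by a neuronal promoter, while CAST, an inbred strain from wild mice, has alleles that differ from the reference genome in many places. There was 1 group of 2 libraries and no wild-type or treated control, so no contrast between conditions exists. Both libraries cite the same donor entry, and the spread between them may be technical. Total RNA was depleted of ribosomal RNA, and 300 ng per library went into a directional kit with spike-in RNA, so unspliced RNA could be sampled. Replicates 1 and 2 held 29204658 and 26322473 expected counts over 55536 annotated genes. The labelled tissue was borne out by its markers. All 6 genes of the steroidogenic cortex list, all 3 of the zona glomerulosa list and all 6 of the chromaffin list were detected, with summed levels of 17125 and 18087 TPM, 536 and 519 TPM, and 1991 and 2300.03 TPM. Genes of white adipocytes summed to 470.3 and 274 TPM, and genes of smooth muscle to 51.9 and 38.4 TPM. In whole tissue, fewer cells of a type and less RNA per cell cannot be told apart.

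Voltage-gated channels open when the membrane depolarises. A pore subunit carries the ion, while auxiliary subunits set its surface level and gating. Chromaffin cells of the medulla fire sodium and calcium action potentials, and calcium entry through their calcium channels releases catecholamines. Calcium-activated potassium channels then repolarise the membrane and shape firing. In the cortex, potassium conductances set the membrane potential, and calcium entry drives steroid output, most directly aldosterone output in the zona glomerulosa.

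Of the 121 channel genes, 47 were detected, meaning 1 TPM (a level scaled to library size and transcript length) or more in both libraries. That was 38.8% of the channel genes, against 56.5% of the other 21780 protein-coding genes. Levels fell off quickly down the list. Only 15 channel genes reached 5 TPM in both libraries, 6 reached 10 TPM and 4 reached 50 TPM. The 4 highest, Kcnn2, Cacna1c, Cacna2d1 and Kcnma1, held 54.5% and 53.3% of the summed level of the set, which was 492 TPM in replicate 1 and 489 TPM in replicate 2. The median channel gene stood at 0.63 and 0.65 TPM and the median other protein-coding gene at 2.63 and 2.67 TPM. At the other end, 24 channel genes were below 0.1 TPM in both libraries. Kcna10, Kcnj1, Kcne1 and Scn10a had 0 counts in each, which allows up to 3 counts per library.

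**Figure D1:**
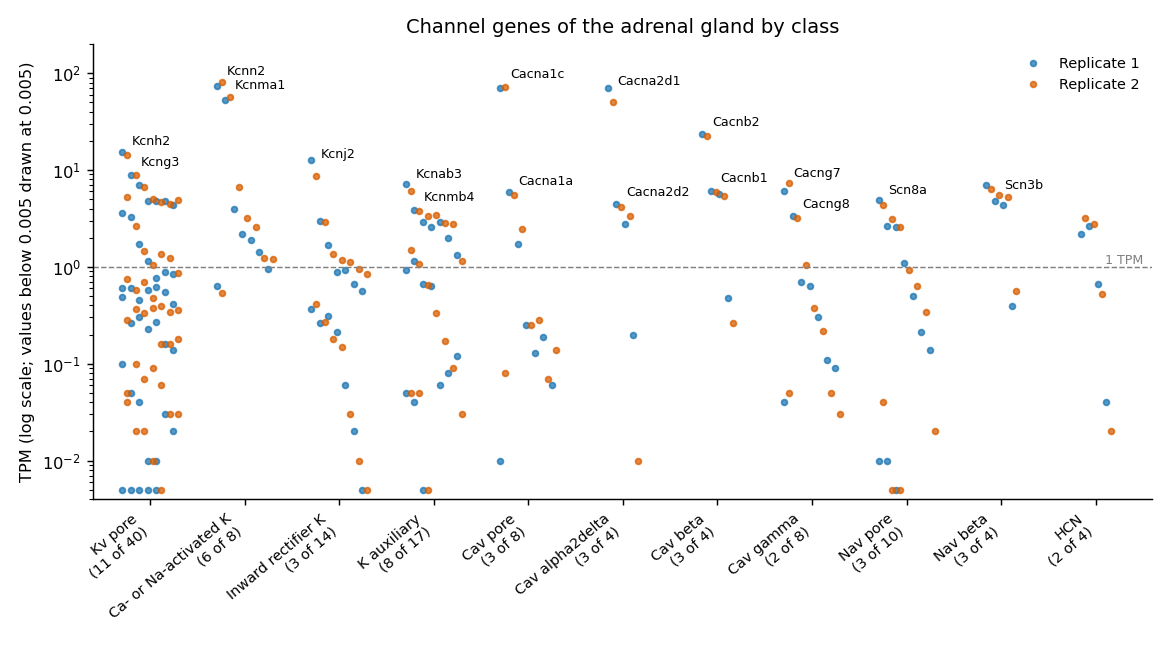
TPM (log scale) of each of the 121 channel genes in replicate 1 (blue) and replicate 2 (orange), by structural class, with the number detected of the number in the class under each name and the dashed line at 1 TPM. Kcnn2, Kcnma1, Cacna1c and Cacna2d1 stand apart at 50.8 to 80.6 TPM, and most Kv, inward rectifier, calcium pore and sodium pore genes lie below the line.

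Among the 8 calcium channel pore genes of the set, which leaves out Cacna1d and Cacna1h, a single gene held most of the level. Cacna1c, which encodes the pore of an L-type channel of heart, smooth muscle and endocrine cells, stood at 70.7 TPM in replicate 1 and 71.7 TPM in replicate 2, from 13569 and 12038 expected counts. It held 89.6% and 89.1% of the summed level of its class of 8 pore genes. Cacna1a, the P/Q-type pore, reached 5.86 and 5.50 TPM. Cacna1b, the N-type pore, reached 1.74 and 2.44 TPM. Both are channels of presynaptic terminals that also open in chromaffin cells. The level of Cacna1c was 12.6 ± 0.686 times that of Cacna1a (SD, n = 2 libraries) and 35.0 ± 7.96 times that of Cacna1b. On protein-coding transcripts alone the ratio to Cacna1a was 31.8 ± 4.92, and Cacna1b, at 1.52 and 2.31 TPM, stood above Cacna1a, at 1.33 and 1.6 TPM, in both libraries. The remaining 5 pore genes of the class were not detected, among them the R-type pore Cacna1e at 0.19 and 0.07 TPM.

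Cacna1c spans 609 kb of chromosome 6 on the minus strand (chr6:118587240-119196418, mm10), and its counts were divided mainly between a pair of coding transcripts with different starts and different alternative exons. The transcript that begins at the outer start held 50.6% and 54.3% of the counts on coding transcripts, and the main transcript of the inner start 40.2% and 38.1%. By TPM, which allows for transcript length, the order of these transcripts was the reverse. They carry opposite members of a pair of mutually exclusive exons of 104 bases that encode the last membrane segment of the first channel domain. Both exons are printed because they are the best covered either-or choice among these genes. Their 104 bases are shown on the coding strand, 5′ to 3′, with the bases at which they differ in capitals.
Cacna1c upstream exon, chr6:118742265-118742368, minus strand, mm10: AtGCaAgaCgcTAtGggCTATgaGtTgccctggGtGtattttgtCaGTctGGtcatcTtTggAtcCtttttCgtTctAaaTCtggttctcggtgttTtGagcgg
Cacna1c downstream exon, chr6:118741871-118741974, minus strand, mm10: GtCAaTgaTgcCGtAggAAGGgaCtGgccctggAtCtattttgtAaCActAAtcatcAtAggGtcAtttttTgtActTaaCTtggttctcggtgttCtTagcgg

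The exons match at 72 of 104 bases (69.2%). By TPM of the coding transcripts that span the site, the upstream exon had 36.2% and 39.4% of the Cacna1c RNA in replicates 1 and 2, and the downstream exon 63.8% and 60.6%. The second deposited quantification, made directly from the reads, gave the upstream exon 33.0% and 35.5%. Both exons were thus present in both libraries, with the downstream exon higher in each. Further along the gene, neighbouring exons of 60 bases were in 57.7% and 54.5% (chr6:118674555-118674614) and in 40.8% and 44.2% (chr6:118674346-118674405). Neighbouring exons of 84 bases were in 39.5% and 43.4% (chr6:118638427-118638510) and in 62.5% and 59.3% (chr6:118637730-118637813). These were not strictly exclusive in the annotation, and the shares of the 84-base exons summed to more than 100%. A 75-base exon of the cytoplasmic linker after the first domain (chr6:118715903-118715977) was present in 61.8% and 57.9%. These shares largely repeat a single split, since the leading pair of transcripts takes the opposite choice at each of these places, and the quantifiers assign reads to whole transcripts.

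The outer and inner starts of Cacna1c were compared by grouping coding transcripts whose first bases lie within 2000 bases. The outer group (chr6:119196231-119196418) held 50.6% and 54.3% of the counts and the inner group (chr6:119107975-119108573) 43.4% and 41.4%. The second quantifier gave 46.8% and 50.1% for the outer group and 43.1% and 40.3% for the inner. These shares of counts are not corrected for transcript length. By TPM the main outer transcript, of 13162 bases, held 23.88% and 24.95% of the gene. The main inner transcript, of 7338 bases, held more, at 34.25% and 31.6%. The 250 bases upstream of the RefSeq start in each group are printed to show how unlike the used starts are (RefSeq, GRCm38.p6, minus strand, 5′ to 3′, all in lower case because no letters are singled out).
Cacna1c outer start, chr6:119196410-119196659: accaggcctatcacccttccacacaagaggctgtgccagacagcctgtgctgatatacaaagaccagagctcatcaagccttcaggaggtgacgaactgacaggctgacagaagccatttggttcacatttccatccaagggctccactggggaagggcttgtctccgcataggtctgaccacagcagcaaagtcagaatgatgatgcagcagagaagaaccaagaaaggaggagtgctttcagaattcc
Cacna1c inner start, chr6:119108496-119108745: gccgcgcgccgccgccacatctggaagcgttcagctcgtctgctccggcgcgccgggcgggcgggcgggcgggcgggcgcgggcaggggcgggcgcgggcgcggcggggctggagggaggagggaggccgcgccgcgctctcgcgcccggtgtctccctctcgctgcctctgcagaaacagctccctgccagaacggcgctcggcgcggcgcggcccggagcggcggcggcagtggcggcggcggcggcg

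The outer stretch is 51.6% G and C, and the inner stretch is 82.8%. Neither 300-base RefSeq promoter around these starts holds AAGGTCA, the motif bound by the steroidogenic factor Nr5a1, or TGACGTCA, the cyclic AMP response element, on either strand. Of all 32851 RefSeq mouse promoters, 4.72% hold the former and 1.79% the latter. A comparison of promoters between detected and other channel genes was void, because promoters were matched for 32 of the 47 detected genes, under 80%.

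The auxiliary classes of calcium channels also had 1 leading gene each, but only the α2δ class was led by a share similar to that of Cacna1c. The extracellular α2δ subunits, which raise the surface level of the channel, were led by Cacna2d1 at 70.8 and 50.8 TPM, or 90.5% and 87.1% of the summed level of its 4 genes. Cacna2d2 stood at 4.42 and 4.19 TPM and Cacna2d3 at 2.80 and 3.33 TPM. Cacna2d1 was as abundant as Cacna1c in replicate 1, with a level ratio Cacna1c to Cacna2d1 of 0.999, and lower than it in replicate 2, with a ratio of 1.41. On coding transcripts Cacna2d1 was lower than Cacna1c in both libraries, with ratios of 1.07 and 1.19. Levels of Cacna2d1 in the libraries did not agree within counting error, at a log2 ratio of -0.27 ± 0.02 (replicate 2 over replicate 1, counting SE).

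The intracellular β subunits carry the pore to the membrane and were represented by 3 of 4 genes. Cacnb2 had 23.7 and 22.5 TPM, Cacnb1 had 6.09 and 5.99 TPM, and Cacnb3 had 5.65 and 5.36 TPM. In each library Cacnb2 held 66.0% of the summed level of the β class. On coding transcripts Cacnb3, at 4.88 and 5.11 TPM, was above Cacnb1, at 4.51 and 4.60 TPM. Cacnb2, the main partner of the L-type channel in heart, was 3.83 ± 0.0968 times as high as Cacnb1 in the gene table (n = 2). On coding transcripts alone the ratio of Cacnb2 to Cacnb1 was lower, at 2.83 in replicate 1 and 2.62 in replicate 2. That fall lies outside the SD of the gene-table ratio, which covers the spread between libraries only. Cacnb4, the form best known from cerebellum, was at 0.48 and 0.26 TPM. Of the 8 γ genes, which include calcium channel subunits and regulators of AMPA-type glutamate receptors, 2 were detected. They were Cacng7 at 6.11 and 7.41 TPM and Cacng8 at 3.31 and 3.18 TPM, both of the receptor-regulating kind. Cacng7 held 54.2% and 59.9% of the summed level of the γ class. Cacng4 followed at 0.69 and 1.05 TPM.

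The calcium- and sodium-activated potassium channels had the highest summed level of any class, 138 TPM in replicate 1 and 153 TPM in replicate 2, or 27.9% and 31.4% of the whole set. Kcnn2, the small-conductance channel that calmodulin gates, had the highest mean level of the 121 genes in the gene table, at 73.9 and 80.6 TPM (77.3 ± 4.72, SD). By the second quantifier Cacna1c was first, with a mean of 73.2 TPM against 72.0 for Kcnn2, and on coding transcripts Cacna1c led replicate 1 at 47.0 TPM and Kcnma1 led replicate 2 at 49.8 TPM. Its relatives were far lower, with Kcnn3 at 1.88 and 2.57 TPM and Kcnn1 at 1.41 and 1.24 TPM. Kcnn2 was 35.3 ± 5.63 times as high as Kcnn3 and 58.7 ± 8.89 times as high as Kcnn1, the latter 36.6 ± 4.56 times on coding transcripts. The intermediate-conductance channel gene Kcnn4 did not reach the limit, at 0.64 and 0.54 TPM.

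Kcnma1, the pore of the large-conductance BK channel, had 52.7 and 57.1 TPM, from 5915 and 5995 counts. BK β subunits slow or inactivate the current. Kcnmb4, the form of neurons, had 3.88 and 3.75 TPM, and Kcnmb2, which inactivates the channel and is known from chromaffin cells, had 1.97 and 2.77 TPM. Kcnmb1, the form of smooth muscle, was at 0.04 and 0.05 TPM from 5 counts in each library. The pore gene was thus 14.4 ± 1.17 times as high as Kcnmb4 and 23.7 ± 4.33 times as high as Kcnmb2 (n = 2). Among the leucine-rich repeat proteins that serve as γ subunits of BK, Lrrc55 had 10.0 and 10.2 TPM, Lrrc38 0.16 and 0.11 TPM, and Lrrc26 and Lrrc52 had 0 counts in both libraries, which allows up to 3 each.

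Kcnma1 lies on chromosome 14 (chr14:23289431-24014491, minus strand, mm10) and is spliced at many sites. The 174-base exon known as STREX, the stress-axis regulated exon, was first described in chromaffin cells and pituitary and changes how the channel responds to calcium and phosphorylation. It is printed with the 81-base exon that lies downstream of it, because including either adds sequence to the cytoplasmic tail of the channel. Both are on the coding strand, 5′ to 3′, with no letters singled out.
Kcnma1 exon of 174 bases, chr14:23425567-23425740, minus strand, mm10: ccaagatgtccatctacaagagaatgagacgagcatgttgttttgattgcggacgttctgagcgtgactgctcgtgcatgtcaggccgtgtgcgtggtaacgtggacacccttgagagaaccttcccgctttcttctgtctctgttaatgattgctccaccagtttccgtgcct
Kcnma1 exon of 81 bases, chr14:23336040-23336120, minus strand, mm10: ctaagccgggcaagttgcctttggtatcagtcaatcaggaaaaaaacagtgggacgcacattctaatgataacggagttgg

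The 174-base exon was in 13.1% and 9.68% of the coding Kcnma1 RNA that spans it, by TPM, and in 19.3% and 15.2% by the second quantifier. The 81-base exon was in 21.3% and 21.7%, and in 18.3% and 18.5% by the second quantifier. A 12-base exon (chr14:23449200-23449211) had 22.3% and 22.9%. These are minority forms in both libraries, and the share of the 174-base exon differed more between quantifiers than between libraries. A 225-base exon (chr14:23309040-23309264) had 38.5% and 44.6%. The shares of the 225-base, 81-base and 12-base exons are not independent. The transcript with the most coding counts, 47.4% and 47.9%, holds all of them, and the next transcript holds none. By TPM their order was the reverse. The former, of 12094 bases, held 14.19% and 15.48% of the gene, and the latter, of 3342 bases, 41.03% and 39.55%. Almost all counts on coding Kcnma1 transcripts, 98.6% and 98.4%, came from those with 1 group of starts.

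The sodium-activated channel gene Kcnt1 had 3.92 and 6.68 TPM, and its relative Kcnt2 fell on both sides of the limit at 0.94 and 1.20 TPM. Kcnu1, whose product is known in mice as the alkalinisation-activated potassium channel of sperm, was detected at 2.17 and 3.23 TPM, from 132 and 179 counts.

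Voltage-gated potassium pores formed the largest class, 40 genes, of which 11 were detected and which summed to 68.1 and 68.5 TPM. Kcnh2, the ERG channel, led at 15.3 and 14.2 TPM. Kcng3, a silent subunit that forms no channel alone and modifies other potassium pores, followed at 8.95 and 8.87 TPM. Amigo1, an adhesion protein and partner of potassium channels, had 11.4 and 10.6 TPM. Other detected pores included Kcnc4, a fast delayed rectifier, Kcnd3 and Kcnd2, A-type channels, and Kcnq1 and Kcnq3, slow channels of the KCNQ family, with means from 1.58 to 4.92 TPM. None of the Kcna genes, the Shaker family, was detected. The nearest was Kcna5, at 0.77 and 1.37 TPM.

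Kcnh2 had 78.0% and 78.2% of its coding counts on the transcript with the outer start and 22.0% and 21.8% on that with the inner start. The inner start is the one annotated for a shorter form of the channel. The second quantifier gave the inner start 18.5% and 14.05%.

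Of 14 inward rectifier genes, 3 were detected. Kcnj2, the strong inward rectifier that holds the resting potential in muscle and endothelium, had 12.8 and 8.74 TPM. Kcnj8, the pore of the vascular ATP-sensitive channel, had 2.97 and 2.89 TPM, and Kcnj4, another strong rectifier, had 1.67 and 1.35 TPM. The regulatory partner of Kcnj8 in vessels, Abcc9, had 4.63 and 5.77 TPM. The pore of the ATP-sensitive channel of pancreatic beta cells, Kcnj11, was at 0.37 and 0.41 TPM, and its partner Abcc8 was at 0.30 and 1.29 TPM. The G-protein-gated genes Kcnj3, at 0.66 and 0.95 TPM, Kcnj6, at 0.92 and 1.13 TPM, and Kcnj9, at 0.31 and 0.18 TPM, missed the limit in at least 1 library.

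Potassium channel auxiliary genes numbered 17, of which 8 were detected. Kcnab3, a cytoplasmic β subunit of Shaker channels, was highest at 7.16 and 6.08 TPM, but on coding transcripts its 3.43 and 2.30 TPM lay below Kcnmb4, at 3.48 and 3.35 TPM. Kcnab2, of the same family, had 2.89 and 2.82 TPM. Kcne4, a single-span subunit that inhibits Kcnq1, had 2.88 and 3.38 TPM, while Kcne1, its relative of the cardiac slow channel, had 0 counts. Kcnip3, a calcium-binding partner of the A-type Kcnd channels, had 2.60 and 3.47 TPM. Dpp6, the other class of Kcnd partner, had 4.34 and 5.46 TPM.

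The 10 sodium pore genes summed to 12.05 TPM in replicate 1 and 12.04 TPM in replicate 2, below the 16.6 and 17.6 TPM of the 4 sodium β genes. Scn8a, a pore of nodes of Ranvier and neuronal initial segments, had 4.85 and 4.37 TPM. Scn3a, a pore of embryonic brain and endocrine cells, had 2.65 and 3.11 TPM, and Scn7a, an atypical sodium-sensing relative found in glia and nerve, had 2.58 and 2.60 TPM. Cacna1c was 15.5 ± 1.29 times as high as Scn8a (n = 2). Scn9a, a pore of sensory and sympathetic neurons, was at 0.50 and 0.64 TPM. Counts of Scn1a, Scn2a, Scn3a and Scn9a, neighbours on chromosome 2, were fractional and no other channel gene's were, so the split of counts among these paralogs is uncertain.

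Among sodium β subunits, cell-adhesion proteins that speed gating, Scn3b had 4.76 and 5.49 TPM and Scn2b 4.39 and 5.25 TPM. Scn3b was the higher in each library, but the ranges of these genes overlapped, and on coding transcripts Scn3b, at 3.41 and 4.04 TPM, was the lower. Scn4b was at 0.39 and 0.56 TPM.

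**Figure D2:**
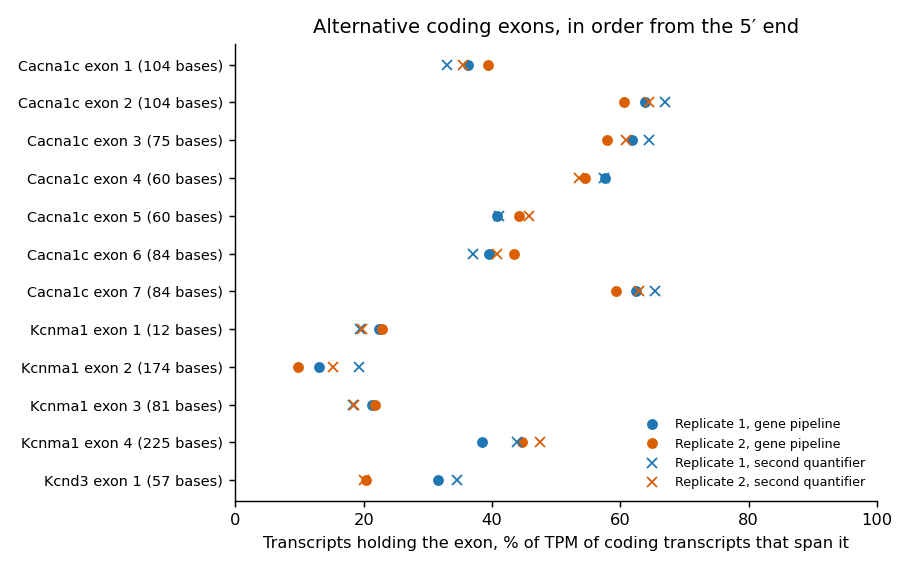
Share of coding RNA (%, x axis) that holds each alternative exon of 3 channel genes, numbered in order along each gene, in replicates 1 (blue) and 2 (orange) by the main transcript table (dots) and the second quantifier (crosses). The 7 Cacna1c exons keep their side of 50% in all values, the 174-base exon of Kcnma1 ranges from 9.68% to 19.3%, and the Kcnd3 exon is higher in replicate 1, at 31.6%, than in replicate 2, at 20.4%.

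Across the 33 channel genes whose mean count was at least 200, 18 had an annotated alternative coding exon, 111 exons in all. Of these exons, 36 in 12 genes lay between 10% and 90% in both libraries and both quantifiers, and 24 of the 36 were a multiple of 3 bases long. Many of these shares differed between quantifiers by more than the SD of the libraries, and others did not. A 20-base exon of Cacnb1 averaged 72.5% by the main transcript table and 58.7% by the second quantifier. In Kcnd3 a 57-base exon was in 31.6% and 20.4%, with means of 26.0% and 27.3% by the main transcript table and the second quantifier. The range of 10% to 90% was chosen after seeing the values. A further start with at least 10% of coding counts in both libraries and quantifiers was present in 5 of the 14 genes with several groups of starts: Kcnn2, Cacna1c, Kcnh2, Cacnb3 and Scn8a. The Scn8a starts were not stable, as a further group held 30.2% in replicate 1 and 0.00% in replicate 2. Starts of Cacnb3 and Kcnn2 depended on the quantifier. The first Cacnb3 start held 51.6% and 48.7% by the main transcript table and 29.3% and 30.2% by the second quantifier. The second Kcnn2 start held 73.2% and 75.5%, against 54.2% and 56.0%. The starts of Cacna1c and Kcnh2, given above, were closer between quantifiers.

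HCN channels carry the depolarising current that follows hyperpolarisation, and 2 of 4 genes were detected. Hcn3 had 2.20 and 3.23 TPM and Hcn2 had 2.62 and 2.74 TPM. Their order turned between libraries, with level ratios Hcn3 to Hcn2 of 0.840 and 1.18. On coding transcripts Hcn3, at 0.66 and 1.33 TPM, was below Hcn2, at 2.62 and 2.74 TPM, in both libraries and missed the limit in replicate 1. The pacemaker gene Hcn4 was at 0.67 and 0.52 TPM.

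Several levels lay so near each other that their order was not fixed. Among the 15 highest genes, 8 of the 14 neighbouring pairs had overlapping values in the pair of libraries. Just above the limit lay Kcnab1 at 1.15 and 1.06 TPM, and Kcnip4 at 1.33 and 1.15 TPM. Just below lay Kcnip1 at 0.93 and 1.49 TPM, Kcna5 and Kcnt2, and 8 channel genes in all passed 1 TPM in a single library.

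**Figure D3:**
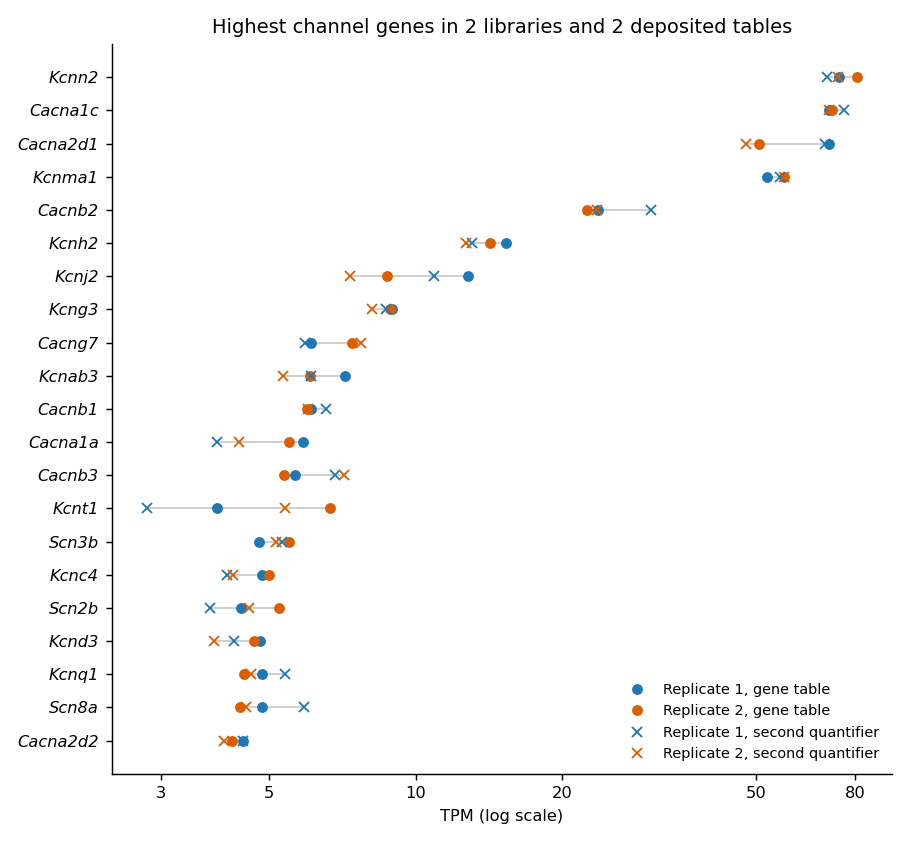
TPM (log scale) of 21 of the 25 highest channel genes in replicates 1 (blue) and 2 (orange), from the gene tables (dots) and the second quantifier summed per gene (crosses), with a grey line over the range. Kcnn2, Cacna1c, Cacna2d1 and Kcnma1 are separated from the rest, and Cacna1a and Kcnt1 have lower values from the second quantifier.

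Genes whose products bind or regulate these channels were described from a list of 42, of which 41 matched a symbol and 31 were detected. Among the highest were the calmodulin genes Calm2 at 176 and 170 TPM and Calm3 at 91.3 and 94.9 TPM, whose product is the calcium sensor of Kcnn2 and Cacna1c. The 14-3-3 gene Ywhaq had 118 and 107 TPM. The calcium-store sensor Stim1, the calcium-binding protein Cabp1 and the ankyrin Ank2, a membrane anchor, had 28.0 and 30.02, 19.0 and 21.04, and 15.4 and 16.2 TPM. The sodium leak channel Nalcn had 4.08 and 4.41 TPM, and its subunits Unc80, Unc79 and Fam155a had 8.52 and 10.7, 3.19 and 4.05, and 4.03 and 4.48 TPM.

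The libraries were close to each other. Of 83 channel genes whose mean count was at least 20, 0 differed by 2-fold or more on TMM-scaled totals, against 1.68% of all 16383 genes with that count. The ratio was higher in replicate 2 for 43 and lower for 40, with a median log2 ratio of 0.02, and of -0.006 over all genes. The median distance from 0, on the log2 scale, was 0.23 for the channel genes and 0.12 for all genes, and their median counts were 128 and 471. Farthest up were Kcna5 at 0.81 ± 0.24 and Hcn3 at 0.80 ± 0.19, followed by Kcnab1 at 0.68 ± 0.26, Kcna3, a Shaker pore, at 0.61 ± 0.39, and Kcnu1 at 0.58 ± 0.17 (log2, counting SE). Farthest down were Kcng4, a silent subunit, at -0.79 ± 0.34, Cacna1e at -0.73 ± 0.41, Kcnf1, also a silent subunit, at -0.70 ± 0.28, Kcnj2 at -0.57 ± 0.05, and the γ gene Cacng3 at -0.48 ± 0.39.

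**Figure D4:**
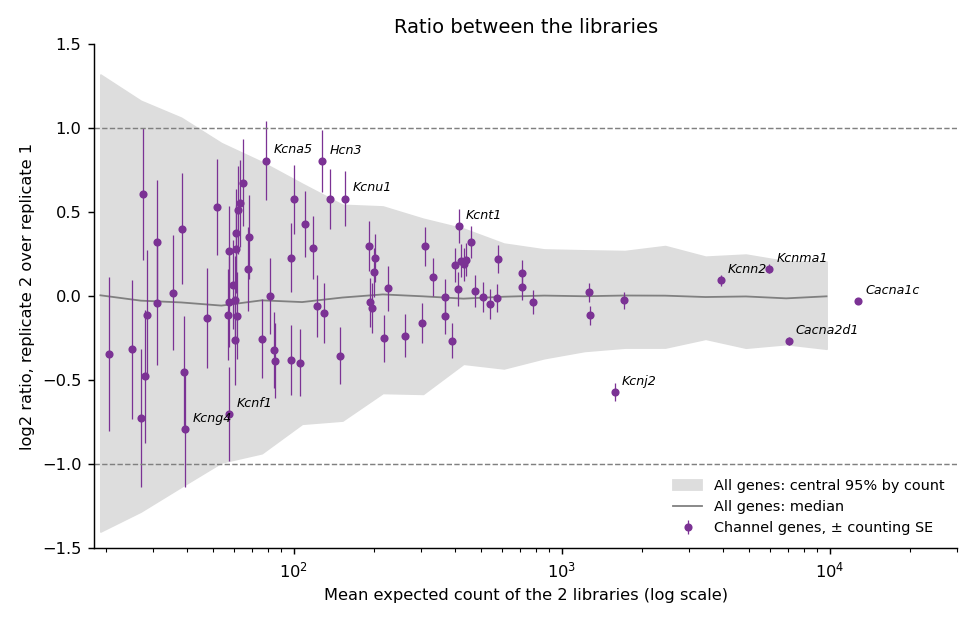
log2 ratio of replicate 2 to replicate 1 against mean expected count (log scale) for the 83 channel genes whose mean count was at least 20, with counting SE, over the median (line) and the central 95% (grey) of all genes by count. Dashed lines mark 2-fold. Kcnj2 lies below the grey band at a log2 ratio of -0.57, and Hcn3 at 0.80 and Kcnu1 at 0.58 are among those above it. Some genes fall outside a central 95% by construction.

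Of the 47 detected genes, 16 (34.0%) differed by more than 2 counting SE, close to the 31.9% of the other 12308 detected protein-coding genes. Of those that were lower in replicate 2, Cacna2d1 and Kcnj2 had the highest counts. Markers of other cell types moved between the same libraries. All 5 white adipocyte genes were lower in replicate 2, with a median log2 ratio of -0.87, and the smooth muscle list had 3 of 4 lower, with a median of -0.27. The macrophage list had 2 of 3 lower, with a median of -0.53, and all 3 endothelial and all 3 zona glomerulosa genes were lower, with medians of -0.08 and -0.10. All 6 chromaffin genes were higher, with a median of 0.17. The part of these cell types in the differences of Kcnj2, Cacna2d1, Hcn3 and Kcnt1 was not tested.

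Part of the signal of some channel genes came from annotated transcripts that are not protein-coding, mostly retained introns. Transcripts of every biotype other than protein-coding are called non-coding here, including those annotated for nonsense-mediated decay. Over 83 genes whose mean count was at least 20, the median share of counts on such transcripts was 1.95%, and it was 5.67% for other protein-coding genes with that count. The share passed 50% in 3 of the 83, or 3.61%, against 5.95% of the other 13688 genes. Kcnn3 had 73.8% and 66.2%, Kcnt1 61.5% and 66.4%, and Kcnab3 45.9% and 57.1%. Kcna6, a Shaker pore that was not detected, had 95.9% and 0%, on a mean count of 60.5. That split depended on the quantifier. In replicate 2 all 57 counts fell on a coding transcript of 5836 bases, to which the second quantifier gave 0. The second quantifier gave 45.3 and 59.1 counts to a transcript of 5827 bases annotated for nonsense-mediated decay. Among detected genes Cacnb2 followed with 45.3% and 42.6%, and Cacna2d3 with 38.2% and 43.3%. A share of 0 was found in 33 genes, and 30 of the 83 have protein-coding transcripts only in the annotation.

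Kcnn2 had 40.4% and 40.8% of its counts on such transcripts, and 61.4% and 61.3% of its TPM on coding ones. For Kcnt1 only 24.0% and 15.4% of the TPM was coding, and for Cacna1a 22.7% and 29.1%, although 75.1% and 78.6% of Cacna1a counts were. Cacna1a counts fell mainly on a coding transcript of 7926 bases, and short non-coding transcripts weigh more per base of length. Levels of these genes in coding RNA are therefore lower than their gene levels. On coding transcripts alone, 41 of the 121 genes reached 1 TPM in both libraries.

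**Figure D5:**
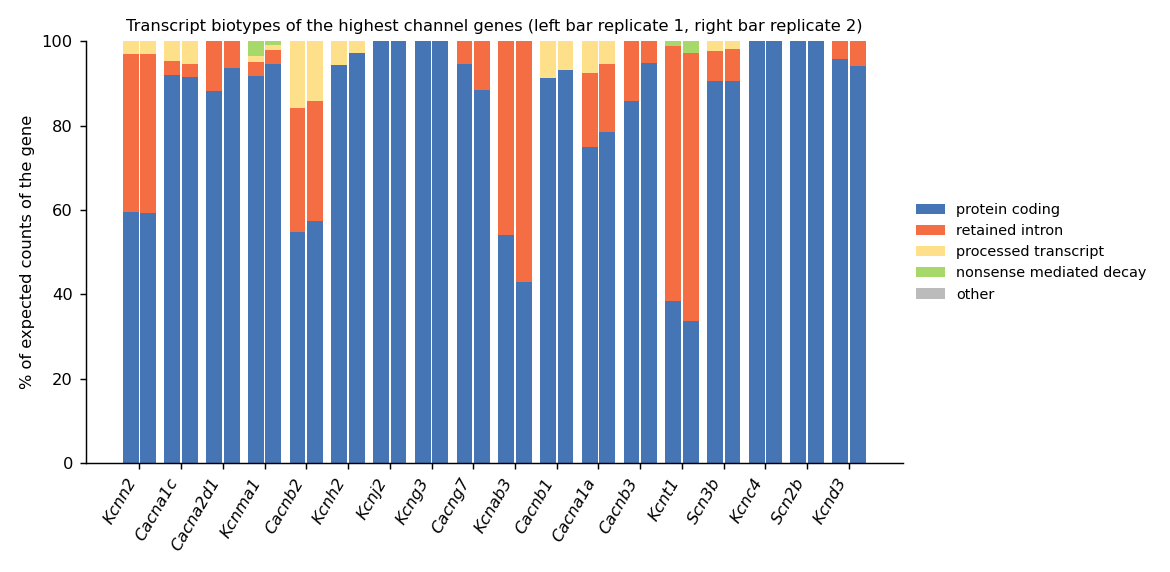
Share of expected counts (%, y axis) by annotated transcript biotype for 18 of the 20 highest channel genes, in order of mean TPM, with replicate 1 in the left and replicate 2 in the right bar of each pair. Retained introns take much of Kcnn2, Cacnb2, Kcnab3 and Kcnt1, while Kcnj2, Kcng3, Kcnc4 and Scn2b are wholly protein-coding.

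The transcript with the largest share of the gene was the same in both libraries for 38 of the 47 detected genes and differed for 9. This was not set against other detected protein-coding genes. By mean level, the first 6 of the 9 were Kcnab3, Cacna1a, Kcnt1, Scn3b, Scn8a and Cacna2d2. In Kcnab3 the leading transcript was protein-coding in replicate 1, with 48.0% of the gene by TPM, and a retained intron in replicate 2, with 59.8%. The lead in replicate 1 was nearly a tie, as the retained intron held 47.46% there.

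The second quantifier gave nearly the same levels. Over 56 channel genes averaging at least 1 TPM in either table, the median log2 difference (second quantifier over gene table, TPM + 0.1) was -0.08, and -0.07 for other protein-coding genes. None of these 56 differed by 2-fold, and 14 of the 15 highest genes were shared. Whether other protein-coding genes pass 2-fold between quantifiers more often was not tested. The second quantifier was highest relative to the gene table for Scn2a, a neuronal sodium pore, at 0.76, Kcnq5, a KCNQ pore, at 0.63, Kcnab1 at 0.37, Cacnb3 at 0.34 and Kcnmb2 at 0.28. It was lowest for Cacna1a at -0.45, Kcnt1 at -0.39, Scn3a at -0.38, Kcne4 at -0.33 and Hcn3 at -0.31.

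Channel genes are long, with a median span of 42.7 kb, against 17.3 kb for other protein-coding genes, and 65.6 kb for the detected ones. Exons of 34 channel genes overlapped exons of another annotated gene. In 8 the overlapping gene had more than 10% of the channel gene's count, and all 8 lay on the opposite strand. Overlaps were counted for channel genes only, so a difference from other protein-coding genes was not tested. For Kcnq1, with a mean count of 302, the antisense imprinted RNA Kcnq1ot1 had 6860 counts, and they share 121 exon bases. Kcnip4 shares exon bases with 5730480H06Rik and Kcnmb4 with Kcnmb4os2. The kit keeps strand, but whether the counting used it is not given in the sources used here, so the levels of Kcnq1, Kcnip4 and Kcnmb4 are uncertain to that extent.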

How the data were processed

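Total RNA from adrenal glands was sequenced in 2 libraries of 1 group. The authors deposited a gene table per library with expected counts, TPM and FPKM, from reads aligned to the transcriptome of mm10 (GENCODE M21 annotation), per the library notes. They also deposited transcript tables with expected counts, TPM and the percent of the gene held by each transcript. The other transcript table, called the second quantifier, has estimated counts and TPM that the authors made from unaligned reads, per the library notes. The aligner and quantifiers are not given in the sources used.

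Channel genes were matched by the symbol and biotype in the transcript identifiers. Counts were rounded and scaled by TMM factors (edgeR 4.0.16, R 4.3.3; DESeq2 1.42.0 size factors as an alternative), with a prior count of 0.5. Counting SEs are Poisson and cover counting error only, as reads are not independent molecules. No p-values were computed, since the labels give no contrast. An exon share is the TPM of coding transcripts holding an exon over that of coding transcripts spanning it, where the gene averaged at least 200 counts. Shares of starts are in counts. Exon sequences come from GENCODE M21 transcripts and promoters from RefSeq. Table work used pandas 2.3.3 and numpy 2.4.6 in Python 3.11.15, and plots matplotlib 3.10.9. Ratios were tested on simulated data.

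Named genes are those reaching 5 TPM in each library, the first 3 of each class, 3 on each side of 1 TPM, the 5 farthest each way between libraries and between quantifiers, the largest non-coding shares and the first 8 partner genes. Some genes and sequences that this rule takes in are not reported here. Others were named after their values were seen, for their known partnership with a named gene or as the first of their kind below the limit. The genes, classes, lists and rules were chosen with earlier results of these data known.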

Additional observations from a re-analysis of the deposited data

How the results depend on the processing

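The summed level of the channel genes was 491 TPM as a mean of the libraries. It was 477 in FPKM, 481 TPM by the second quantifier, 1338 TPM when rescaled over protein-coding genes only and 360.2 TPM over protein-coding transcripts only. The number detected ranged from 38 at a limit of 2 TPM to 70 with rescaled TPM, and was 48 and 54 in single libraries. Neither these counts nor the 41 on coding transcripts were set against other protein-coding genes. That comparison was made only at 1 TPM in the gene tables. The median level was 0.595 TPM, and 0.577 by the second quantifier. No channel gene passed 2-fold between the libraries with DESeq2 size factors, total counts, a mean count of at least 100, a prior count of 2 or the second quantifier's counts. With a mean count of at least 1, 13 of 114 did, and 15.6% of all such genes. The median share on non-coding transcripts was 1.95%. It was 2.71% by the second quantifier, 2.95% at a mean count of at least 100, and 1.45% to 1.47% when leaving out a library, and the cause was not tested. No value changed sign. The alternatives for exon and start shares were chosen after seeing the data. No paired analysis was possible because there is 1 group. Depth limits the 18 channel genes with 3 counts or fewer in both libraries.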
